A study of Mus musculus with 6 samples.

Results

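The genes of chemokines, the small secreted proteins that direct cell movement, and of their receptors were examined in RNAseq libraries from WT and *Slc37a2* KO BMM-derived osteoclasts. Genes were taken by symbol: those made of the stems Ackr, Ccl, Ccr, Cxcl, Cxcr or Xcr and a number, and *Ccrl2*, *Cx3cl1*, *Cx3cr1*, *Pf4*, *Ppbp* and *Xcl1*. These were 52 of the 22601 genes listed. Each listed gene had at least 1 count over the libraries, so family genes without counts are not among the 52. Of the 52, 16 were classed by symbol as CC ligands, 15 as CXC, CX3C, XC and platelet ligands, 17 as receptors and 4 as atypical receptors. A gene was taken as detected at a mean over the 6 libraries of at least 1 CPM, its counts relative to the total of the library, and 20 of the 52 passed.

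Chemokines bind receptors that span the cell membrane and signal through G proteins, which sets the direction in which a cell moves. Atypical receptors bind chemokines without this signal and clear or shape them. In the osteoclast lineage, Ccr1 and its ligands are known for the differentiation and survival of the cells, and Cxcr4, Cx3cr1 and their ligands for the position of precursors in bone marrow.

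Each genotype had 3 libraries. The labels describe bone marrow macrophages (BMMs) from WT or *Slc37a2* KO mice that were cultured for 5 days with 10 ng/ml RANKL, the cytokine that induces osteoclasts, and 2 ng/ml M-CSF, a macrophage growth factor. The column headings of the counts give an age of 11 weeks, and all 6 carry a letter F that the sources used here do not explain. By the methods of the study, the mice were on the C57BL/6N background, and *Slc37a2* KO mice were homozygous for the tm2a allele, a gene trap made in 1 clone of embryonic stem cells. The allele was carried by the whole animal, so the BMMs had it before they were cultured. The RNAseq methods of the study describe RNA of whole femurs and tibias of mice of both sexes in place of cultured cells, while its results name osteoclasts. The labels were followed, and marker levels are given below. Libraries are named by the code of a letter and a number in their column heading, since the columns carry no replicate number. What this code stands for is not given in the sources used here. WT libraries K090, L080 and L082 held 39250356, 27552183 and 31396766 counts. *Slc37a2* KO libraries K089, L078 and L081 held 29279260, 42522292 and 29663713.

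The knocked-out gene followed the labels. *Slc37a2* was at 1857, 2151 and 2440 CPM in WT libraries K090, L080 and L082 and at 45.3, 32.1 and 36.9 CPM in the *Slc37a2* KO libraries (K089, L078, L081). These and later values of single genes in single libraries are CPM scaled by the TMM factors of edgeR, which correct for composition, while sums over lists are CPM before scaling. The log2 fold change was −5.82 (95% confidence interval −6.30 to −5.34, adjusted p = 7.07e-04 by Benjamini-Hochberg from edgeR's quasi-likelihood test).

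The libraries stood apart along a line that was not the genotype. On the first principal component, with 57.7% of the variance, WT libraries lay at −24.7 (K090), −22.4 (L080) and 9.78 (L082) and *Slc37a2* KO libraries at 40.1 (K089), −34.3 (L078) and 31.6 (L081). *Slc37a2* KO L078 thus lay with WT K090 and L080, and WT L082 on the side of *Slc37a2* KO K089 and L081. Estimates for the detected members that are named are therefore given also with libraries left out.

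The labelled cell type was checked against markers. All 11 osteoclast markers were above 1 CPM, with *Mmp9*, a matrix protease, the most abundant at 23630 CPM. Their sum was 40130, 52190 and 57610 CPM in WT K090, L080 and L082 and 70650, 44600 and 64430 CPM in *Slc37a2* KO K089, L078 and L081. The 10 macrophage markers were all above 1 CPM too, and summed to between 3934 CPM (L082) and 4400 CPM (L078), most of it *Csf1r*, the M-CSF receptor (1876 CPM), and *Cd68*. Of 13 stromal and osteoblast markers other than *Cxcl12*, 10 were above 1 CPM. Their sums were 854, 1233 and 1571 CPM in WT K090, L080 and L082 and 669, 1873 and 608 CPM in *Slc37a2* KO K089, L078 and L081, led by the collagen gene *Col1a1* (538 CPM). Markers of other blood cells differed by list. Not among the genes listed were 6 of 8 T and NK cell markers, 2 B cell markers and 2 neutrophil markers. Likewise absent were 1 dendritic cell marker, 1 monocyte marker and 1 platelet and megakaryocyte marker. Of 4 dendritic cell markers analysed, 2 were above 1 CPM, led by *Itgax* (18.5 CPM), and the sum ran from 21.3 CPM in L082 to 29.0 CPM in K089. Of 4 monocyte markers analysed, 1 was above 1 CPM, *Plac8* (6.99 CPM), and the sum ran from 2.19 CPM in L081 to 14.4 CPM in L078. The 2 of 8 T and NK cell markers that were listed, led by *Trac* (3.59 CPM), summed to between 3.64 CPM (L081) and 6.59 CPM (L078). Of 5 B cell markers analysed, 1 was above 1 CPM, *Ighm* (1.06 CPM), and the sum ran from 0.649 CPM in K089 to 2.21 CPM in L080. Neutrophil markers summed to at most 1.27 CPM, with 5 of 5 read below 1 CPM and *S100a8* the most abundant at 0.546 CPM. *S100a8* was lower in each *Slc37a2* KO library than in each WT library (log2 fold change −0.93, adjusted p = 0.969 by Benjamini-Hochberg from edgeR's quasi-likelihood test). The 4 platelet and megakaryocyte markers read, *Gp1bb* the most abundant, summed to at most 0.796 CPM.

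A ligand and a receptor held most of the RNA. Per kb of exon, the scale on which genes of different length can be compared, *Ccl9* had the highest mean level of the 52 genes at 545 CPM per kb. *Ccr1* was next at 241 CPM per kb, followed at a distance by *Cxcr4* (27.3), *Ccr3* (20.0), *Cxcl16* (18.8) and *Pf4* (8.42). *Ccl2* (5.92), *Ccl3* (5.91), *Ccl6* (4.55), *Ccl7* (4.41), *Ccl4* (3.36), *Cx3cr1* (2.75), *Cxcl10* (2.67) and *Cxcl14* (2.03) came next on this scale of CPM per kb. Lower among the detected genes were *Ccl27a* (0.853), *Ccl25* (0.696), *Ccl22* (0.676), *Cx3cl1* (0.637) and *Cxcl12* (0.465). *Ccl9* lay above *Ccr1*, and *Ccr1* above every further member, in each of the 6 libraries. Of all counts of the 52 genes, *Ccl9* held 64.0% and *Ccl9* with *Ccr1* 89.8%.

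**Figure D1:**
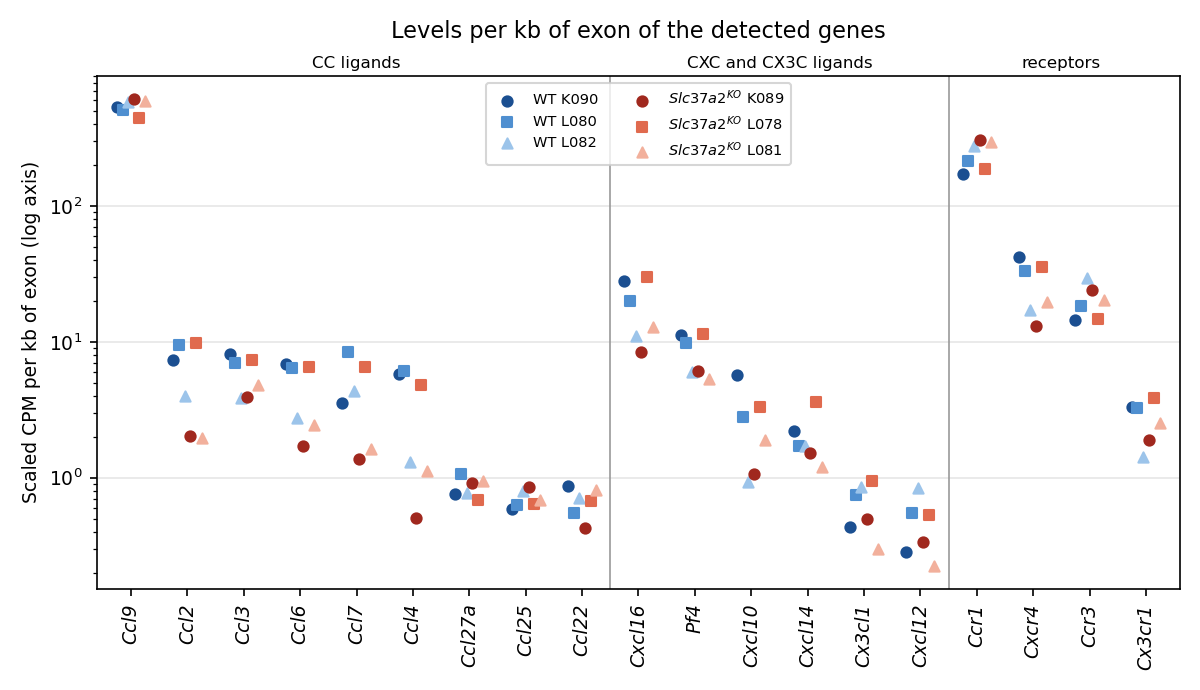
Scaled CPM per kb of exon (log axis) of 19 detected genes in each of 3 WT (blue) and 3 *Slc37a2* KO (red) libraries, 1 point per library. *Ccl9* (mean 545 CPM per kb) and *Ccr1* (241) lie above the other 17 genes in every library, and WT and *Slc37a2* KO points overlap for every gene.

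No member of the list passed the test between genotypes. With edgeR's quasi-likelihood test and adjustment by Benjamini-Hochberg, 0 of the 31 members tested were called at an adjusted p below 0.05, beside 0.00742% of the 13483 genes tested, which is *Slc37a2* alone. At an unadjusted p below 0.05 the test gave 0 of 31 members, beside 0.712% of all genes. edgeR's likelihood ratio test called 0 members (0.0148% of all genes), with 1 of 31, *Cxcr6*, at an unadjusted p below 0.05, beside 0.46% of all genes. DESeq2's Wald test called 0 (0.0148% of all genes), with 0 at an unadjusted p below 0.05, beside 0.512% of all genes. The 3 libraries of each genotype lay fully apart for 2 of the 31 members, beside 4.31% of all genes. Both are receptors below 1 CPM, *Ccr4* (higher in *Slc37a2* KO) and *Cxcr6* (lower), and none of the 20 detected genes was among them.

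The estimates leaned toward lower levels in *Slc37a2* KO, by less than the spread between libraries. Of the 20 detected genes, 15 had a log2 fold change below 0 and 5 above, beside 7584 and 5899 of all genes tested. The median of the 20 was −0.21, beside −0.02 over all genes tested. Over the 31 tested members it was 22 below and 9 above, again with a median of −0.21. This median rested on single libraries. It was −0.59 without *Slc37a2* KO L078, −0.07 without WT K090 and −0.07 without *Slc37a2* KO K089. Without WT L080, WT L082 and *Slc37a2* KO L081 it was −0.21, −0.34 and −0.15. In the 4 libraries whose code begins with L, a fit added once the data had been seen, it was 0.03. The median of the members in single libraries, relative to the mean of each gene, was 0.50, 0.32 and −0.24 log2 in WT K090, L080 and L082 and −0.51, 0.52 and −0.22 log2 in *Slc37a2* KO K089, L078 and L081. Each genotype thus had libraries on both sides of 0.

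Without L078, 12 of the 32 members then tested had fully separate genotypes, 4 higher and 8 lower in *Slc37a2* KO, but so had 41.6% of all genes. The quasi-likelihood test then gave 6 members at an unadjusted p below 0.05 (*Ccl2*, *Ccl4*, *Ccl6*, *Ccl7*, *Ccl12* and *Cxcr3*), beside 20.1% of all genes, and called 0 after adjustment.

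**Figure D2:**
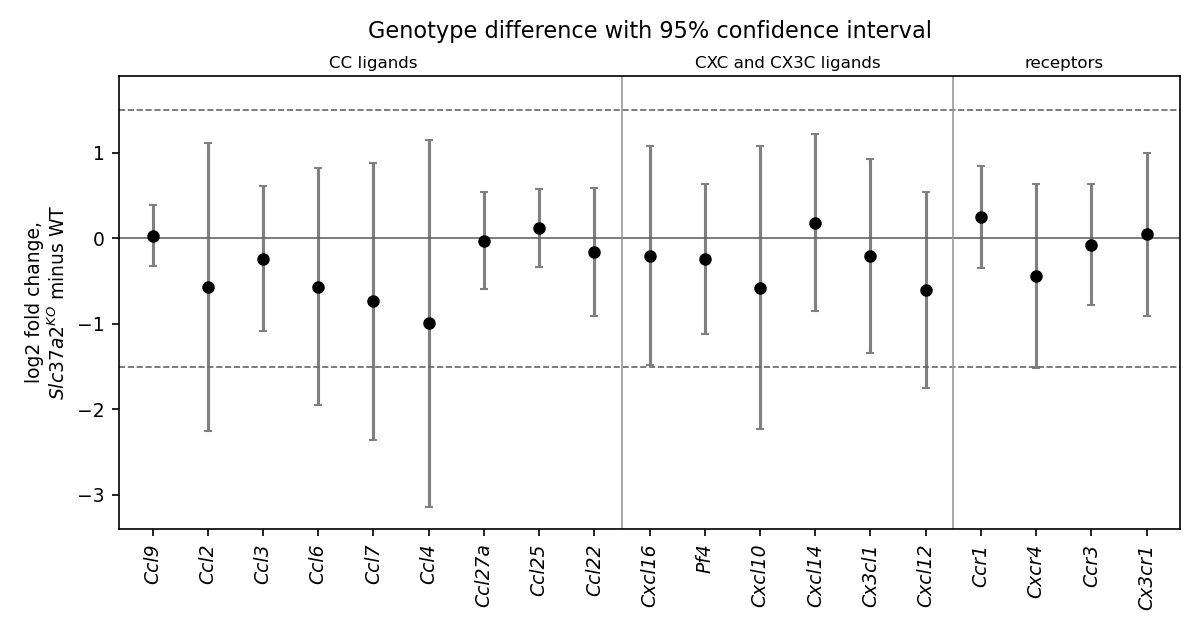
The log2 fold change (*Slc37a2* KO minus WT) of 19 detected genes from edgeR's quasi-likelihood fit, with bars for the 95% confidence interval and dashed lines at −1.5 and 1.5. Every interval includes 0, from the narrow one of *Ccl9* (−0.33 to 0.39) to the wide one of *Ccl4* (−3.15 to 1.15).

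What the libraries left room for differed from gene to gene. The 95% interval lay inside −1.5 to 1.5 log2 for 13 of the 20 detected genes, and inside −1 to 1 for 6. Intervals were wide because libraries of one genotype differed. The SD within a genotype had a median of 0.66 log2 over the detected genes, beside 0.17 over all genes tested, and the span over the 6 libraries a median of 1.64 log2, beside 0.42.

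Among the CC ligands, 9 of 16 were detected. *Ccl9*, a ligand of Ccr1 made by myeloid cells and osteoclasts, was at 1640, 1539 and 1764 CPM in WT K090, L080 and L082 and at 1866, 1356 and 1822 CPM in *Slc37a2* KO K089, L078 and L081. Its highest and lowest library were both *Slc37a2* KO, and no 2 libraries differed by more than 1.38-fold. The means were 1648 ± 113 CPM in WT and 1682 ± 283 CPM in *Slc37a2* KO (SD, n = 3), and the log2 fold change was 0.03 (interval −0.33 to 0.39). This was the steadiest of the detected genes, with an SD within a genotype of 0.19 log2, and its estimate ran from −0.0277 without K089 to 0.163 without L078.

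*Ccl6*, its neighbour on chromosome 11 and likewise a myeloid ligand of Ccr1, varied far more. It was at 12.3, 11.5 and 4.94 CPM in WT K090, L080 and L082 and at 3.08, 11.8 and 4.35 CPM in *Slc37a2* KO K089, L078 and L081. K090, L080 and L078 were high, the other 3 libraries low, and the genotypes overlapped (log2 fold change −0.57, interval −1.95 to 0.82). *Ccl2*, which draws monocytes through Ccr2, was at 8.33, 10.8 and 4.53 CPM in WT and at 2.31, 11.2 and 2.23 CPM in *Slc37a2* KO, with the same 3 libraries high. L078 was the highest of the 6 and L081 the lowest, a 5.03-fold difference inside 1 genotype (log2 fold change −0.57, interval −2.25 to 1.11). Leaving out 1 library, the estimate of *Ccl6* ran from −1.36 without L078 to −0.22 without K089, and that of *Ccl2* from −1.80 without L078 to −0.20 without L081.

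The widest range within a genotype among the detected genes, and the largest estimated fall, belonged to *Ccl4*, a ligand that draws monocytes and T cells. WT libraries K090, L080 and L082 had 3.82, 3.99 and 0.867 CPM, and *Slc37a2* KO libraries K089, L078 and L081 had 0.330, 3.15 and 0.742 CPM. The *Slc37a2* KO libraries differed 9.54-fold among themselves. The log2 fold change of −0.996 had a standard error of 0.89 (interval −3.15 to 1.15, adjusted p = 0.969 by Benjamini-Hochberg from edgeR's quasi-likelihood test), and ran from −2.42 without L078 to −0.53 without K089. *Ccl3*, a ligand of Ccr1, spanned 2.95 to 6.22 CPM in WT and 3.01 to 5.59 CPM in *Slc37a2* KO, and *Ccl7*, a further monocyte attractant, 2.82 to 6.78 CPM and 1.10 to 5.26 CPM. The estimate of *Ccl3* (−0.24) ran from −0.54 without L078 to −0.0166 without K090, and that of *Ccl7* (−0.74) from −1.84 without L078 to −0.28 without L080.

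The remaining CC ligands were steadier. *Ccl25*, known from thymus and gut as the ligand of Ccr9, lay between 4.41 and 6.39 CPM over the 6 libraries. *Ccl27a*, the skin ligand of Ccr10, lay between 1.62 and 2.51 CPM, and *Ccl22*, a ligand of Ccr4, between 0.991 and 2.03 CPM. Their log2 fold changes were 0.12, −0.03 and −0.16, and ran from 0.00315 to 0.28, −0.11 to 0.14 and −0.33 to 0.0795 with 1 library left out. The receptors of these ligands were all below 1 CPM: *Ccr9* had a mean of 0.0604 CPM, *Ccr10* 0.0221 CPM and *Ccr4* 0.767 CPM. *Ccl25* and *Ccl27a* share exon bases with a gene on the opposite strand (*Elavl1* and *Il11ra1*), and *Ccl27a* has near-identical copies in the mouse genome. Whether the counting used strand is not given in the sources used here, so the source of their reads is uncertain.

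Of the 15 CXC, CX3C, XC and platelet ligands, 6 were detected. *Cxcl16*, a membrane-bound ligand of Cxcr6 that also takes up oxidised lipid, was at 85.4, 60.3 and 33.5 CPM in WT K090, L080 and L082 and at 25.5, 91.1 and 38.6 CPM in *Slc37a2* KO K089, L078 and L081. The highest and the lowest library were both *Slc37a2* KO, 3.57-fold apart, so the genotypes overlapped (log2 fold change −0.20, interval −1.49 to 1.08). Its sign was positive without WT K090 (0.15) or without *Slc37a2* KO K089 (0.14), and it was −0.90 without L078. It shares exon bases with *Zmynd15* on the opposite strand. Its receptor *Cxcr6* was at a mean of 0.848 CPM.

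*Pf4*, the platelet factor that megakaryocytes and macrophages make, was at 8.09, 7.10 and 4.33 CPM in WT and at 4.37, 8.19 and 3.85 CPM in *Slc37a2* KO, with the same 3 libraries high (log2 fold change −0.24, interval −1.12 to 0.63). *Ppbp*, the other platelet chemokine, had a mean of 0.0507 CPM. *Cxcl10*, a ligand of Cxcr3 that interferons induce, was at 12.8, 6.29 and 2.09 CPM in WT K090, L080 and L082 and at 2.39, 7.48 and 4.28 CPM in *Slc37a2* KO K089, L078 and L081. The WT libraries spanned 6.15-fold, more than the difference of the genotype means (7.07 ± 5.42 CPM in WT and 4.71 ± 2.57 CPM in *Slc37a2* KO; SD, n = 3). The log2 fold change was −0.58 (interval −2.24 to 1.08) and became 0.18 without WT K090 and −1.09 without L078. That of *Pf4* ran from −0.66 without L078 to −0.0307 without L081. The exons of *Cxcl10* overlap those of *Art3* on the opposite strand.

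*Cxcl12*, the stromal ligand of Cxcr4, showed another order of libraries, for which it is given in full after its values were seen. It was at 2.30, 4.52 and 6.90 CPM in WT K090, L080 and L082 and at 2.75, 4.35 and 1.84 CPM in *Slc37a2* KO K089, L078 and L081. L082, low for *Cxcl16* and *Cxcl10*, was the highest here, and K090 was among the low ones (log2 fold change −0.60, interval −1.75 to 0.54), and the estimate ran from −0.99 without L078 to −0.16 without L082. *Cx3cl1*, the membrane-bound ligand of Cx3cr1, spanned 1.72 to 3.37 CPM in WT and 1.17 to 3.73 CPM in *Slc37a2* KO. *Cxcl14*, a ligand of epithelia and stroma, spanned 3.15 to 4.02 CPM and 2.19 to 6.64 CPM, with a log2 fold change of 0.18 that ran from −0.47 without L078 to 0.48 without L081, and that of *Cx3cl1* (−0.21) ran from −0.77 to 0.12 without the same libraries.

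Of the 17 receptors, 5 were detected. *Ccr1*, the receptor of Ccl3, Ccl5, Ccl6, Ccl7 and Ccl9, was at 491, 612 and 783 CPM in WT K090, L080 and L082 and at 874, 526 and 840 CPM in *Slc37a2* KO K089, L078 and L081. It had the largest estimated rise of the detected genes, at a log2 fold change of 0.25 (interval −0.35 to 0.84, adjusted p = 0.969 by Benjamini-Hochberg from edgeR's quasi-likelihood test). The 2 highest libraries were *Slc37a2* KO, but L078 lay below WT L080 and L082. The estimate ran from 0.0990 without K090 to 0.465 without L082, and was −0.0298 in the L libraries alone.

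*Ccr3*, the eotaxin receptor of eosinophils, was at 47.4, 59.8 and 96.1 CPM in WT and at 78.8, 48.4 and 65.9 CPM in *Slc37a2* KO, and both the lowest and the highest library were WT (log2 fold change −0.07, interval −0.79 to 0.64). *Cxcr4*, the Cxcl12 receptor that holds cells in the marrow, was at 76.3, 60.4 and 31.1 CPM in WT K090, L080 and L082 and at 23.8, 64.1 and 35.6 CPM in *Slc37a2* KO K089, L078 and L081. The 3 high libraries were those of *Cxcl16*, not those of its own ligand *Cxcl12* (log2 fold change −0.44, interval −1.51 to 0.64). *Cx3cr1*, a receptor of monocytes and osteoclast precursors, spanned 6.39 to 15.0 CPM in WT and 8.51 to 17.4 CPM in *Slc37a2* KO, and shares exon bases with *Gm33858* on the opposite strand. Leaving out 1 library, the estimate of *Cxcr4* ran from −0.91 without L078 to −0.15 without K089, that of *Cx3cr1* from −0.28 without L078 to 0.28 without K089, and that of *Ccr3* from −0.28 without K090 to 0.29 without L082.

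The 4 atypical receptors were all below 1 CPM. *Ccrl2*, which presents the chemoattractant chemerin, was at 0.809, 0.777 and 0.257 CPM in WT K090, L080 and L082 and at 0.147, 0.555 and 0.389 CPM in *Slc37a2* KO K089, L078 and L081. *Ackr4*, a scavenger of Ccl19, Ccl21 and Ccl25, was at 0.417, 0.353 and 0.161 CPM in WT and at 0.220, 0.444 and 0.389 CPM in *Slc37a2* KO. *Ackr3*, a scavenger of Cxcl12, was at 0.0245, 0.177 and 0.128 CPM in WT and at 0, 0.178 and 0 CPM in *Slc37a2* KO. *Ccrl2* and *Ackr4* were tested (log2 fold changes −0.71 and 0.19) and neither was called. Leaving out 1 library, these ran from −1.19 without L078 to −0.35 without K089 and from −0.0916 without L082 to 0.48 without K090. *Ackr4* shares exon bases with *Acad11* on the opposite strand. *Ackr2*, which clears inflammatory CC chemokines, had a mean of 0.0177 CPM.

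The members below 1 CPM numbered 32, of which 11 were tested. Just above the limit were *Ccl27a* (2.03 CPM, the mean before scaling) and *Ccl22* (1.57 CPM), and just below it *Cxcr3* (0.921 CPM), *Cxcr2* (0.884 CPM), *Ccl5* (0.858 CPM) and *Cxcr6* (0.848 CPM). The other tested ones were *Ccr4*, *Ccr2*, *Ccl12*, *Ccr7* and *Cxcl9*, between 0.767 and 0.228 CPM, and *Ccrl2* and *Ackr4* above. *Ccr2*, the receptor of Ccl2 and Ccl7 on monocytes, had a mean of 0.749 CPM, below the limit though both ligands were detected. Ccl7 is also a ligand of Ccr1, whose gene was detected. *Cxcr3*, the receptor of the detected ligand Cxcl10, was below the limit too. Not tested were *Cxcl2*, *Cxcl1*, *Ccr1l1*, *Cxcl11*, *Ccl28*, *Ackr3*, *Cxcl13*, *Ccr9*, *Ppbp*, *Ccl24*, *Cxcl3*, *Ccl8*, *Ccr10*, *Cxcr1*, *Cxcr5*, *Ackr2*, *Xcr1*, *Ccl20*, *Cxcl5*, *Ccl17* and *Xcl1*, from 0.302 down to 0.00392 CPM, which is 1 count in 1 library. Of these, *Cxcl11* is annotated in GENCODE M21 as a polymorphic pseudogene. Among the 32, 12 had 10 counts or fewer over the 6 libraries and 15 had a library at 0. Neutrophil attractants were in this range as a group, with *Cxcl1*, *Cxcl2*, *Cxcl3*, *Cxcl5* and *Ppbp* between 0.00605 and 0.302 CPM.

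*Cxcr6* and *Ccr4*, whose genotypes lay apart, were looked at after their values were seen. *Cxcr6* was at 2.03, 0.565 and 0.899 CPM in WT K090, L080 and L082 and at 0.440, 0.555 and 0.530 CPM in *Slc37a2* KO K089, L078 and L081. L080 and L078 were close, so the distance came mainly from K090, without which the estimate was −0.52 (log2 fold change −1.20, interval −2.42 to 0.00, adjusted p = 0.969 by Benjamini-Hochberg from edgeR's quasi-likelihood test). *Ccr4* was at 0.711, 0.707 and 0.706 CPM in WT and at 0.734, 0.732 and 1.03 CPM in *Slc37a2* KO, an estimate of 0.22 (interval −0.37 to 0.82) that was 0.0699 without L081.

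The members shared 3 orders of libraries. For 10 of the 20 detected genes (among them *Ccl2*, *Ccl3*, *Ccl4*, *Ccl6*, *Cx3cr1*, *Cxcl10*, *Cxcl16*, *Cxcr4* and *Pf4*), the 3 highest libraries were WT K090 and L080 and *Slc37a2* KO L078, as for 22.6% of all genes tested. For 4 (*Ccl9*, *Ccl25*, *Ccr1* and *Ccr3*) they were the other 3, as for 20.8% of all genes, and for 3 (*Ccl7*, *Cx3cl1* and *Cxcl12*) they were L080, L082 and L078, as for 8.89% of all genes. *Ccl22*, *Ccl27a* and *Cxcl14* each had an order of their own. L078 was the highest *Slc37a2* KO library for 14 of the 20 genes and K089 the lowest for 10. The shares of all genes with these positions were not taken. Over all genes tested, L078 and K089 lay at opposite ends of the first principal component, at −34.3 and 40.1.

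**Figure D3:**
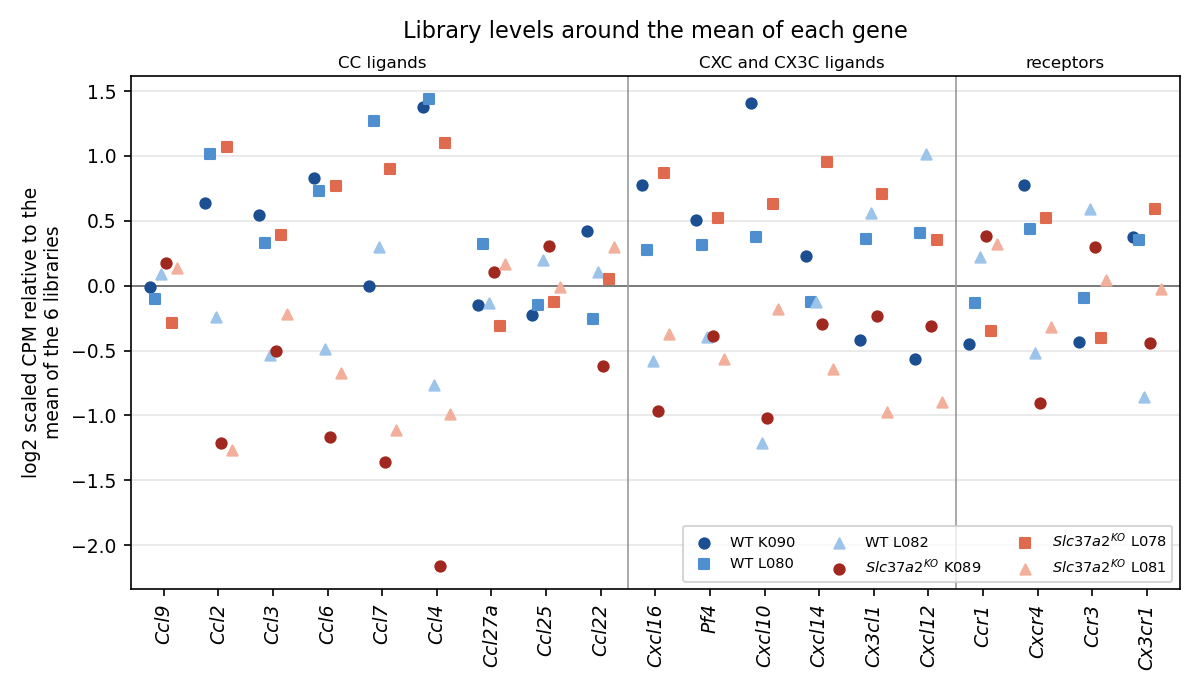
Log2 scaled CPM of each library minus the mean of the 6 log2 values of the gene, for 19 detected genes, with 3 WT libraries in blue and 3 *Slc37a2* KO libraries in red. WT K090 (dark blue circles), WT L080 (blue squares) and *Slc37a2* KO L078 (red squares) lie highest for 9 genes, among them *Cxcl16* and *Cxcr4*, and the other 3 libraries for 4, among them *Ccr1*.

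Marker genes of cell types moved with these orders. The 3 libraries K090, L080 and L078 were the highest for 8 of the 10 macrophage markers. *Adgre1*, which codes for F4/80, was at 312, 272 and 80.0 CPM in WT K090, L080 and L082 and at 64.4, 262 and 95.8 CPM in *Slc37a2* KO K089, L078 and L081. *Cd68* had the opposite order. Both endothelial markers tested also had K090, L080 and L078 highest. Of 6 endothelial markers, 2 were not among the genes listed. The 4 analysed, led by *Kdr* (3.71 CPM), summed to between 3.03 CPM (L081) and 6.19 CPM (L078). L082, K089 and L081 were the highest for 9 of the 11 osteoclast markers, as for *Ccl9* and *Ccr1*. The protease gene *Ctsk* was at 7905, 10600 and 14870 CPM in WT and at 18990, 8994 and 17680 CPM in *Slc37a2* KO. L080, L082 and L078 were the highest for 8 of the 10 stromal and osteoblast markers tested, as for *Cxcl12*. The part of these cells in the levels of the chemokine genes was not tested. In bulk RNA, fewer cells of a kind and less RNA per cell cannot be told apart.

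Interferon-stimulated genes moved with the order of *Cxcl10*. All 20 genes of the list had K090, L080 and L078 as their 3 highest libraries, and 19 were above 1 CPM. They summed to 593, 379 and 175 CPM in WT K090, L080 and L082 and to 144, 433 and 205 CPM in *Slc37a2* KO K089, L078 and L081. The median log2 fold change of the list was −0.81, with 20 of 20 below 0. It rested on single libraries, from −1.87 without L078 to −0.0868 without K090, where 16 of 20 lay below 0, and in the L libraries alone it was 0.29, with 0 of 20 below 0. For these genes edgeR's quasi-likelihood test called 0 after adjustment by Benjamini-Hochberg, beside 0.00742% of all genes. At an unadjusted p below 0.05 it gave 0, beside 0.712% of all genes. Of the 18 genes of NF-kappaB and inflammation, 15 were above 1 CPM, led by *Nfkbia*, its feedback inhibitor, at 362 CPM. Their sums lay between 1551 CPM (K089) and 1882 CPM (K090), a narrower range, and their median log2 fold change was −0.01. Of the 15 tested, 6 had K090, L080 and L078 as their 3 highest libraries, beside 22.6% of all genes. The same test called 0 of the 15 and gave 0 at an unadjusted p below 0.05, beside the same shares of all genes. The part of interferon in the levels of the chemokine genes was not tested.

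Because *Cxcl10* followed the interferon-stimulated genes, promoter letters were read, from 250 bases before to 50 after the gene start, in RefSeq sequences of GRCm38.p6. Of the 52 members, 40 were matched by symbol, 15 of them detected. The core of the interferon-stimulated response element, GAAANNGAAA, was searched on both strands, as was the NF-kappaB consensus. The first is in 3.44% of 32851 promoters of this length and, among the 15, in *Cxcl10* and *Cxcl14*. The second is in 4.51% and, among the 15, in *Cxcl10*, *Ccl9*, *Ccr3* and *Ccl27a*. Of the 40 matched members, 10 hold it. The rest of these, *Ackr2*, *Ccl20*, *Ccrl2*, *Cxcl1*, *Cxcl2* and *Cxcl3*, are below 1 CPM. Both motifs are in 0.183% of all promoters and, among the 15, in *Cxcl10* alone, where they do not overlap. A match describes letters and is not a site of binding. *Cxcl14*, which holds the core, had another order of libraries than the interferon-stimulated genes. *Ccl3*, *Ccl6*, *Cx3cr1*, *Cxcr4* and *Pf4* had the order of those genes, were matched and do not hold the core. A link between the core and the order was not tested. *Ccl2*, *Ccl4*, *Ccl7* and *Cxcl16* were not matched. The windows of the interferon core and, for *Cxcl10* and *Ccl9*, of the NF-kappaB consensus are shown on the strand of the gene, with the match in capitals. The *Cxcl10* windows lie at chr5:92349083-92349112, chr5:92349029-92349058 and chr5:92348973-92349002, the *Cxcl14* window at chr13:56296704-56296733 and the *Ccl9* window at chr11:83578652-83578681, each on the minus strand of the genome. In *Ccl9* the consensus reads on the strand opposite to the gene.
*Cxcl10*, interferon core: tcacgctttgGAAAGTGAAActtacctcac
*Cxcl10*, NF-kappaB, distal: agaggggagaGGGAAATTCCaagttcatgg
*Cxcl10*, NF-kappaB, proximal: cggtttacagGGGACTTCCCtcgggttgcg
*Cxcl14*, interferon core: gtgtccacagGAAACAGAAAagcagcaccc
*Ccl9*, NF-kappaB: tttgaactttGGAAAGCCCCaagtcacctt

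Genes side by side in the genome had different levels. In the GENCODE M21 annotation of GRCm38, 31 of the 52 members lie in 7 groups with gaps of at most 250 kb, on 5 chromosomes. A group of receptor genes on chromosome 9 holds *Ccr1* and *Ccr3*, at 241 and 20.0 CPM per kb, and *Ccr9*, *Cxcr6*, *Xcr1*, *Ccr1l1* and *Ccr2* below 1 CPM. *Ccr1l1*, a close relative of *Ccr1* beside it, was at 0.144 CPM per kb. A group of 5 CC ligand genes on chromosome 11 (83525778 to 83664683) holds *Ccl9*, *Ccl6*, *Ccl3* and *Ccl4*, at 545, 4.55, 5.91 and 3.36 CPM per kb, and *Ccl5* below 1 CPM. Neighbours also differed in their order of libraries, since *Ccl9* was highest in L082, K089 and L081 and *Ccl6*, *Ccl3* and *Ccl4* in K090, L080 and L078. *Ccr1* and *Ccr3* shared the order of *Ccl9*.

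**Figure D4:**
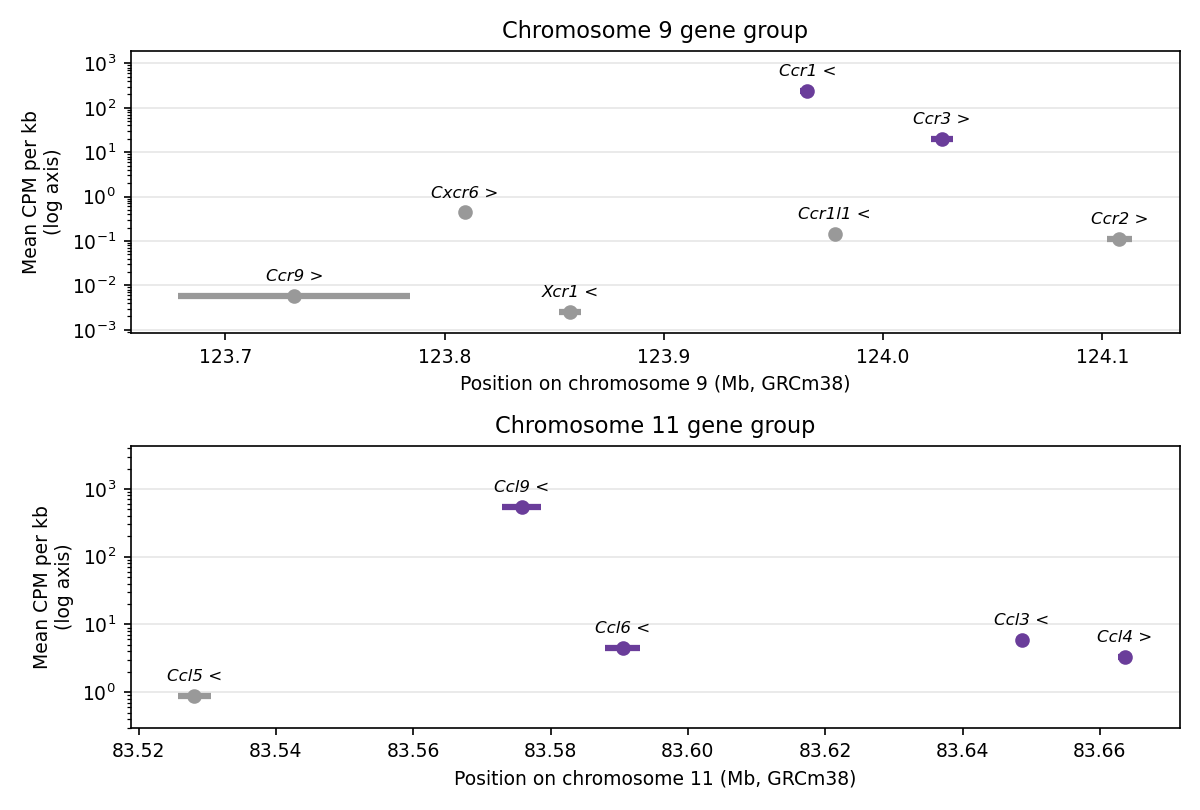
Mean CPM per kb of exon (log axis) against position on chromosomes 9 and 11 (GRCm38) for receptor genes of 1 group and the 5 CC ligand genes of another, with bars for the gene spans, < or > for the strand, purple for detected genes and grey for genes below 1 CPM. *Ccr1* (241) and *Ccl9* (545) lie highest in their groups.

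From 4 lists, 59 genes of signalling downstream of the receptors and of chemokine-cleaving enzymes were read, and 53 of them were tested. With edgeR's quasi-likelihood test and adjustment by Benjamini-Hochberg 0 were called, up or down, beside 0.00742% of all genes. At an unadjusted p below 0.05 the test gave 1 of 53, the macrophage elastase *Mmp12*, beside 0.712% of all genes. The Wald test of DESeq2 and edgeR's likelihood ratio test called 0 as well, each beside 0.0148% of all genes. *Mmp12* was at 30.0, 34.4 and 33.1 CPM in WT K090, L080 and L082 and at 27.7, 23.4 and 29.5 CPM in *Slc37a2* KO K089, L078 and L081. The genotypes lay apart for 2 of the 53, *Mmp12* and the kinase gene *Pak1*, beside 4.31% of all genes (for *Mmp12*, log2 fold change −0.27, interval −0.53 to −0.01, adjusted p = 0.969 by Benjamini-Hochberg from edgeR's quasi-likelihood test). The median log2 fold change was −0.05 over the 53, and ran from −0.0504 without L078 to −0.00231 without K089. It was −0.03 over genes of G proteins and effectors (27 tested), from −0.0248 without L080 to 0.0134 without K090. For receptor kinases and arrestins (7) it was −0.07, from −0.0841 without L078 to −0.00231 without K089. For RGS proteins that switch G proteins off (10) it was −0.18, from −0.39 without L078 to 0.04 without L082. For chemokine-cleaving enzymes (9) it was −0.17, from −0.34 without L078 to −0.04 without K089. The G protein subunit *Gnai2*, through which chemokine receptors signal, lay between 555 and 618 CPM over the 6 libraries. *Rac2*, a GTPase of cell movement, lay between 819 and 1272 CPM, and *Dock2*, which activates Rac in leukocytes, between 40.2 and 143 CPM. *Dock2* was high in K090, L080 and L078, as was *Cxcr4*.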

How the data were processed

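The authors deposited whole-number read counts per gene symbol, not normalized, for 6 libraries, beside their own edgeR comparison (fold changes, likelihood ratios, p-values and FDR), which was not used. The submitters' processing notes name bcl2fastq 2.20.0.422, edgeR 3.30.3 and the build mm10. The sources used here name no aligner or counting tool and do not say whether strand was used. Columns were assigned to genotypes by their headings, and 0 were left unused. The labels call the samples biological replicates. The closest pair of libraries, K089 and L081, differed by 6.72 (chi-square per degree of freedom), so none was a duplicate.

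The main fit used edgeR 4.0.16 with limma 3.58.1 under R 4.3.3. Genes were filtered by filterByExpr at default settings and scaled by TMM, and the quasi-likelihood functions tested genotype, with p-values adjusted by Benjamini-Hochberg over 13483 genes. Alternatives were DESeq2 1.42.0, edgeR's likelihood ratio test, other scaling and filters, the letter of library names as a term, and each library left out. The scripts were tested on simulated data. Totals ran from 27552183 to 42522292 counts, and the biological coefficient of variation was 20.8%. An exact permutation test of 3 libraries against 3 cannot give a two-sided p below 0.1. Lengths are unions of exons in GENCODE M21, and sums over marker lists are CPM before scaling. Figures were drawn with matplotlib 3.10.9 in Python 3.11.15.

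Of the 20 members at a mean of 1 CPM or more, 19 were named and drawn, and 1 is not reported here. Library values were given for the 3 most abundant members of each class, for detected members with an unadjusted p below 0.05 or separate genotypes, and for those with the largest rise, the largest fall and the widest range. Of other lists, up to 4 of the most abundant genes could be named. *Cxcl12*, *Cxcr6*, *Ccr4*, *Adgre1*, *Mmp12*, *Pak1*, *S100a8* and *Dock2* were given in full or named after their values were seen. The members and lists were chosen with earlier results of these data known.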

Additional observations from a re-analysis of the deposited data

How the results depend on the processing

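No paired analysis was possible because the column headings carry no replicate numbers. The sources used here do not say what the letter K or L that opens a library name means. With this letter as a term, which is not a pairing, 0 members were called and their median log2 fold change was −0.23. Of 266 alternative estimates for single genes, 240 kept their sign and 26 reversed it, and the cause was not tested. Leaving out 1 library at a time, the log2 fold change ran from −0.0277 to 0.163 for *Ccl9*, −0.28 to 0.29 for *Ccr3*, −0.90 to 0.15 for *Cxcl16*, −0.28 to 0.28 for *Cx3cr1*, −1.09 to 0.18 for *Cxcl10*, −0.47 to 0.48 for *Cxcl14*, −0.77 to 0.12 for *Cx3cl1*, −0.11 to 0.14 for *Ccl27a* and −0.33 to 0.0795 for *Ccl22*. In the L libraries alone, a fit added after seeing the data, it was −0.0551 for *Ccl9*, −0.0298 for *Ccr1*, 0.47 for *Cxcl16*, 0.13 for *Cxcr4*, 0.0818 for *Pf4*, 0.50 for *Cxcl10*, −0.10 for *Ccl25*, 0.16 for *Ccl3* and 0.24 for *Ccl22*. Members with separate genotypes numbered 0 of 21 at 1 CPM in 3 libraries, beside 3.97% of all genes, and from 2 (without K089, beside 6.91%) to 12 of 32 (without L078, beside 41.6%).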

Other observations

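Chemoattractant receptors and ligands with other names were read as a further list. It was added after the member counts were seen. Of its 20 genes, 17 were tested, and edgeR's quasi-likelihood test called 0 after adjustment by Benjamini-Hochberg, beside 0.00742% of all genes. At an unadjusted p below 0.05 the test gave 0, beside 0.712% of all genes. The median log2 fold change of the 17 was −0.28, with 14 below 0 and 3 above. It ran from −0.97 without L078 to −0.0220 without K089, and was 0.0975 in the L libraries alone. For 11 of the 17, WT K090 and L080 and *Slc37a2* KO L078 were the 3 highest libraries, as for 22.6% of all genes tested. *C3ar1*, the receptor of the complement fragment C3a, was at 194, 150 and 81.0 CPM in WT K090, L080 and L082 and at 61.0, 165 and 68.4 CPM in *Slc37a2* KO K089, L078 and L081. *C5ar1*, the receptor of C5a, was at 79.8, 70.2 and 28.5 CPM in WT and at 20.5, 80.9 and 25.8 CPM in *Slc37a2* KO. Their log2 fold changes, −0.53 and −0.48, ran from −1.13 without L078 to −0.23 without K090 and from −1.36 without L078 to −0.14 without K089. *Gpr183*, an oxysterol receptor that guides osteoclast precursors, had the opposite libraries high, at 87.4, 85.4 and 116 CPM in WT and at 141, 90.5 and 131 CPM in *Slc37a2* KO. These 3 genes were named after their values were seen.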
